A study of Mus musculus with 34 samples.

Results

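The genes described here are transcriptional targets of p53, the tumour suppressor encoded by Trp53, and a few of its close partners. A list of 33 gene symbols was matched to the probesets of a mouse microarray, and 30 of them were measured, each by 1 probeset, among 19938 genes measured in all. Members are picked by symbol, and no measured value enters the rule, but the list was chosen with earlier results of these data known. Cdkn1a, whose only probeset is annotated with a further gene, and Trp53 and Gdf15, for which no probeset was listed, are not analysed here.

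p53 is a transcription factor that is kept scarce in unstressed cells because Mdm2, itself the product of a p53 target gene, marks it for destruction. Damage to DNA and other stresses stabilise p53, which then binds paired half-sites near its target genes. The targets arrest the cell cycle, repair DNA, restrain growth signalling or prime apoptosis, and some of them switch p53 off again. In B-cell precursors, which cut and rejoin their own DNA while they assemble antigen receptor genes, this pathway is a well known guard against leukaemia.

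Expression was measured on 34 Affymetrix Mouse Gene 1.0 ST arrays in Bin-2 and 8093, mouse pre-B acute lymphoblastic leukaemia lines that each came from a BCR/ABL transgenic mouse; BCR/ABL is the fused, always active tyrosine kinase made by the Philadelphia chromosome. Bin-2 has a mixed genetic background and 8093 an inbred C57Bl/6J one, so each line stands for 1 leukaemia. All cultures, untreated ones included, grew on irradiated mouse embryonic fibroblasts in medium with recombinant IL-3, and the collected cells were those floating or only loosely attached. Each line was kept continuously in nilotinib, an inhibitor of the ABL kinase, at 50 nM in Bin-2 and 20 nM in 8093, or in lonafarnib, an inhibitor of the farnesyltransferase that lipid-modifies Ras and other proteins, at 0.25 µM in Bin-2 and 1 µM in 8093. The doses were chosen in pilot cultures so that most cells died and a minority grew out. Each of the 4 courses has its own start arrays at day 0, which received no drug. A midpoint followed on day 3 (day 4 for lonafarnib in 8093), when Trypan blue staining gave 5 to 10% viable cells (20% for lonafarnib in 8093). The end came when viability had returned to about 90% under drug, on day 21 and day 30 for nilotinib and lonafarnib in Bin-2 and on day 20 and day 26 for nilotinib and lonafarnib in 8093. There were 3 arrays per group, from separate plates, except at the ends of both 8093 courses, which have 2; at the midpoints, a larger dish or pooled dishes supplied enough cells.

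Values are log2 signals, and a change is a difference of group means in log2 units, given ± the standard error (SE) of a limma fit over all arrays. A gene is said to be called, or to have risen or fallen, at a Benjamini-Hochberg adjusted p below 0.05 over 19938 genes.

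The p53 binding site is a well known DNA motif, a pair of 10-base half-sites, and it was searched for in the promoters of the members. Windows from 250 bases before to 50 bases after each annotated start were at hand for 22 of the 30 measured members (RefSeq, GRCm38.p6). The p53 consensus site, with adjacent half-sites, at most 2 mismatches and the C and G at the core of each half-site in place, occurred in 4 of these 22 genes (18.2%), against 106 of all 27025 genes with a window (0.392%). The motif reads the same on both strands. The matches are shown 5′ to 3′ on the strand of the gene, with the 20 matching bases in capitals, to show what a p53 site looks like. Genes become known as p53 targets in part through such sites, so the share among the members is a description of the list and not independent of how it was made.
Ccng1, chr11:40755432-40755511, minus strand: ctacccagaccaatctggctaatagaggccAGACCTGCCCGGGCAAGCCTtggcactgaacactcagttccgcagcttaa
Gtse1, chr15:85859915-85859964, plus strand: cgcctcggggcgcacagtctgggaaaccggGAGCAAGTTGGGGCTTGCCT
Ckap2, chr8:22185973-22186052, minus strand: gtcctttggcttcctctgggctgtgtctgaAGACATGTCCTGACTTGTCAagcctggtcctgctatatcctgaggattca
Trp73, chr4:154097190-154097269, minus strand: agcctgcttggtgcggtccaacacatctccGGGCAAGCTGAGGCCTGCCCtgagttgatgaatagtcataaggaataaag
The sites in Ccng1 and Gtse1 have 1 mismatch and those in Ckap2 and Trp73 have 2. Relative to the annotated transcript start of their window, counted as 0, they begin at -195 in Ccng1, -203 in Ckap2, -66 in Trp73 and -1 in Gtse1. A gene can have several annotated starts, and those used for Ccng1, Trp73 and Gtse1 lie inside the gene, downstream of its outermost start. With half-sites allowed to lie 0 to 13 bases apart, Sesn1 joined them, which made 5 of 22 genes (22.7%) against 1272 of 27025 (4.71%). Ddb2, Perp, Rb1, Rrm2b, Tnfrsf10b, Trp53inp1, Xpc and Zmat3 had no window in the table used here. A match describes letters, and these 4 genes did not share a direction: over the 8 comparisons with a start, Ccng1 was called higher in 4 and lower in 0, Trp73 higher in 1 and lower in 0, Gtse1 lower in 5 and higher in 0, and Ckap2 lower in 2 and higher in 0.

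Before treatment the cells carried pre-B cell transcripts. The mean log2 signal of 11 pre-B cell markers was 9.69 to 9.79 and 9.61 to 9.77 over the start arrays of the Bin-2 courses and 8.89 to 9.13 and 9.03 to 9.14 over those of 8093, although Blnk, an adaptor of the pre-B cell receptor, averaged 4.78 and 4.40 in the 8093 starts. At the nilotinib end of 8093 the pre-B list lay at 5.78 to 5.88, and 10 of the 11 were called lower, with Cd79a at 5.33, Ebf1 at 5.65 and Pax5 at 5.41 on average. Markers of other blood cells were higher in several treated groups. With nilotinib in Bin-2, 9 of 10 macrophage markers rose at the midpoint and 10 at the end, where their mean lay at 7.95 to 9.18 and 8.48 to 9.90, against 5.80 to 6.23 at the start, and 9 of 10 mast cell markers rose at the end (6.98 to 7.21, against 4.18 to 4.28). With nilotinib in 8093, 9 mast cell markers rose at the midpoint and 10 at the end (8.92 to 9.74 and 10.95 to 10.98, against 3.72 to 4.08), and 8 and 9 macrophage markers (8.86 to 9.72 and 8.51 to 10.11, against 5.13 to 5.23). At the lonafarnib midpoints 5 macrophage markers rose in Bin-2 (7.18 to 7.53, against 5.69 to 6.14), and 6 macrophage and 8 mast cell markers in 8093 (6.61 to 7.48 and 5.56 to 6.94, against 5.06 to 5.23 and 3.69 to 3.81). Of the 11 pre-B cell markers, 5 fell and 0 rose at this midpoint in Bin-2 (9.21 to 9.40, against 9.61 to 9.77). In 8093, 4 of them fell and 1 rose (8.82 to 8.91, against 9.03 to 9.14). At the lonafarnib ends 2 macrophage markers rose in each line (6.44 to 7.09 in Bin-2 and 5.37 to 6.54 in 8093), and 1 fell in 8093. There 5 mast cell markers rose (4.95 to 5.17), while in Bin-2 1 fell at the lonafarnib midpoint and 2 at the end. Of the pre-B cell markers, 1 rose and 1 fell at the lonafarnib end of Bin-2, and 2 rose and 3 fell at that of 8093. Of 10 fibroblast markers, 4 rose in Bin-2 and 8 in 8093 at day 3 of nilotinib, and 5 in Bin-2 at day 3 of lonafarnib. Over all genes, the nilotinib midpoints gave 1.87% higher and 1.6% lower in Bin-2, and 22.6% and 27.5% in 8093. The nilotinib ends gave 4.95% and 3.94% in Bin-2, and 19.6% and 24.9% in 8093. For lonafarnib the midpoints gave 4.45% and 12% in Bin-2, and 3.89% and 6.9% in 8093. Its ends gave 4.66% and 3.41% in Bin-2, and 4.4% and 4.31% in 8093. The mean of the 7 markers of T and NK cells lay between 3.59 and 4.21 on every array (2 of the 7 were called higher at the nilotinib midpoint of 8093), with the array floor taken as 3.32 from Y-linked genes (their highest mean in any group). In RNA from a whole culture, fewer cells of a type and less RNA per cell cannot be told apart. The part of these other cells, and of the low viability at the midpoints, in the results below was not tested. The arrays of the nilotinib midpoint of 8093 and the lonafarnib midpoint of Bin-2 also had a narrower spread of signals (interquartile range 3.03 and 3.16) than those of the other 10 groups (3.42 to 3.55).

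**Figure D1:**
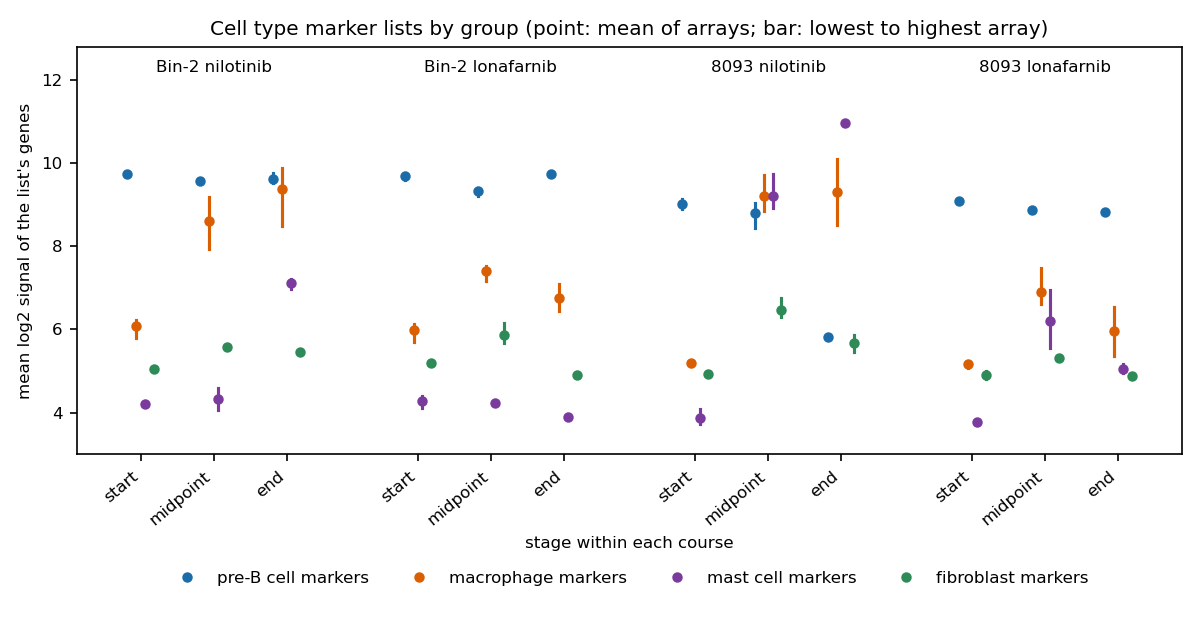
Mean log2 signal of 4 cell type marker lists (y axis) at the start, midpoint and end of each course (x axis). Points are means of the arrays of a group and bars run from the lowest to the highest array; a list is read along the x axis, not against another list. The pre-B list is at 5.78 to 5.88 at the nilotinib end of 8093 and between 8.44 and 9.81 in the other 11 groups; at that end the mast cell list is at 10.95 to 10.98.

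Over the 4 courses, 28 of the 30 measured members were called in at least 1 of the 8 comparisons with a start, as were 70.7% of all genes. Of the 28 members, 11 were called only higher (Mdm2, Ccng1, Eda2r, Plk3, Sesn2, Trp53inp1, Phlda3, Fas, Ephx1, Rb1 and Trp73), 9 only lower (Sesn1, Aen, Gtse1, Rrm2b, Xpc, Ddb2, Ppm1d, Apaf1 and Ckap2) and 8 both ways. Perp, a membrane protein of the apoptotic response, and Dcxr, a carbonyl reductase, were called in none. The members called most often in 1 direction were Btg2, Sesn2 and Ephx1, each higher in 5 comparisons, and Gtse1 and Ppm1d, each lower in 5. Eda2r, Perp, Fas and Trp73 were dim, with a mean below 5 over all arrays.

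**Figure D2:**
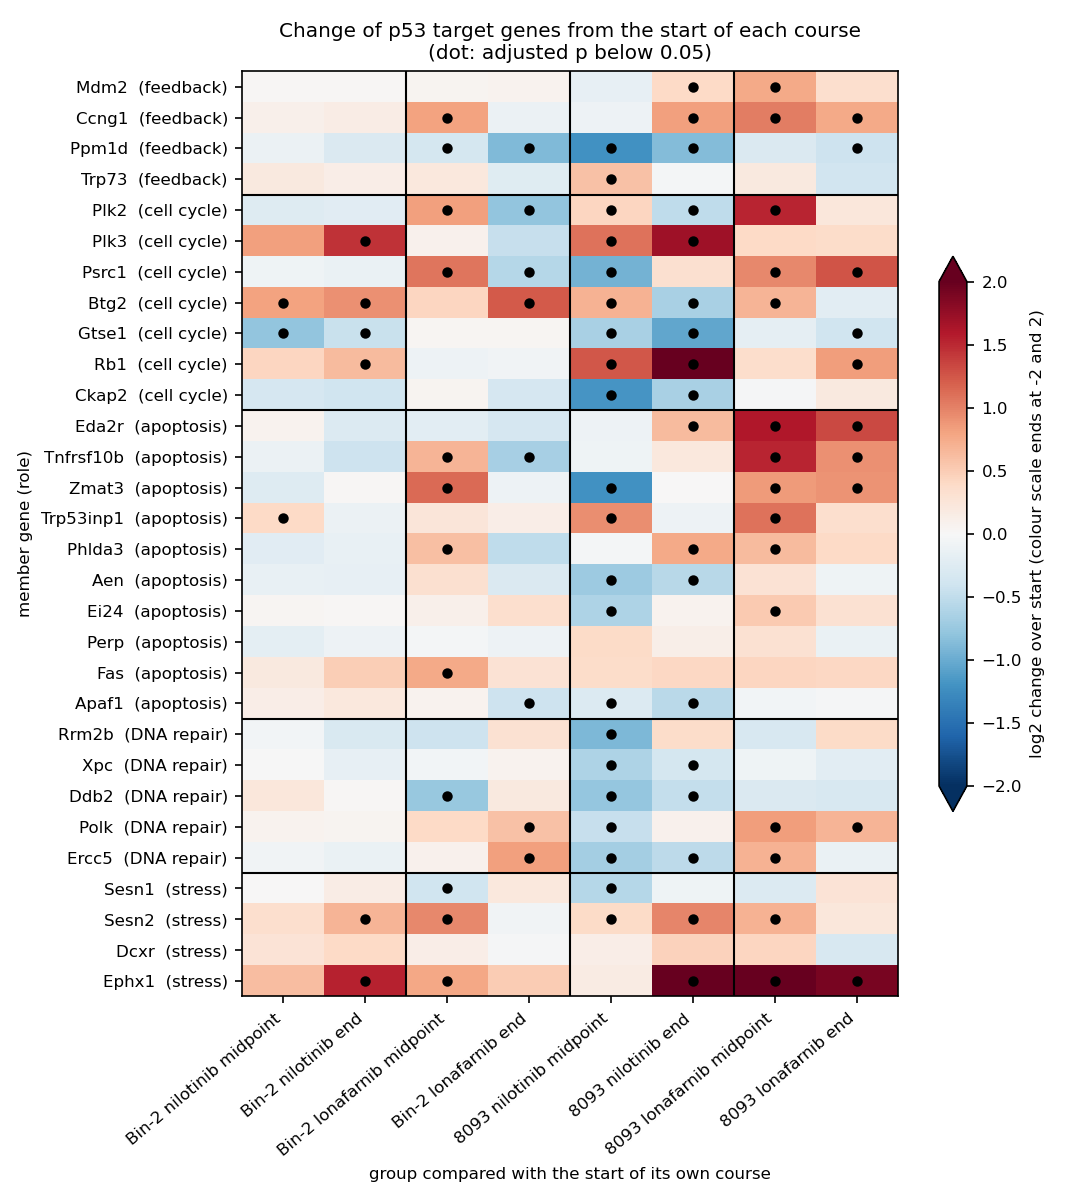
Change of each measured p53 target gene (rows, grouped by role) at the midpoint and end of each course over the start of that course (columns), as log2 difference; black dots mark an adjusted p below 0.05. At the lonafarnib midpoint of 8093 all 15 dots lie on rises; at the nilotinib midpoint of 8093 there are 7 on rises and 14 on falls.

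The lonafarnib midpoints compare cultures with few viable cells with the untreated culture, and in both lines more p53 targets rose than fell. In Bin-2, 9 of the 30 members rose and 3 fell, with a median change of 0.12, where 4.45% of all genes were called higher and 12% lower, with a median of -0.01. In 8093, 15 members rose and 0 fell, with a median of 0.48, where 3.89% of all genes were called higher and 6.9% lower, with a median of 0.01. Of the members that rose, 8 were shared (88.9% of those in Bin-2 and 53.3% of those in 8093): Ccng1, Plk2, Tnfrsf10b, Zmat3, Psrc1, Sesn2, Phlda3 and Ephx1. The overlap of the lines over all genes was not counted, so these shares have no background beside them. Fas was called higher in Bin-2 and not in 8093, while Mdm2, Eda2r, Btg2, Trp53inp1, Ei24, Polk and Ercc5 were called higher in 8093 and not in Bin-2. When arrays were put on 1 distribution by quantile normalization, the Bin-2 midpoint gave 13 members higher and 1 lower, and over all genes 884 higher and 1007 lower in place of 887 and 2400. In 8093 that scaling left the members at 15 and 0 and gave 928 genes higher and 876 lower in place of 775 and 1375.

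At the lonafarnib ends the lines had different members above the start. In Bin-2, 3 members were higher and 5 lower (median -0.07), where 4.66% of all genes were called higher and 3.41% lower (median 0.01). In 8093, 8 members were higher and 2 lower (median 0.29), where 4.4% of all genes were called higher and 4.31% lower (median -0.03), and 5 of 10 mast cell markers were called higher as well (4.95 to 5.17, against 3.69 to 3.81). Polk alone was called higher at both ends. In Bin-2 the 5 below the start became 3 without replicate 2 of the end, and in 8093 the 2 below the start became 0 or 1 without any 1 of the 5 arrays. With quantile normalization the 8093 end gave 10 members higher and 1 lower, and with equal array medians 8 and 0.

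With nilotinib, few members moved in Bin-2: at the midpoint 2 rose and 1 fell (median 0.03; over all genes 1.87% higher and 1.6% lower, median 0.01), and at the end 5 rose and 1 fell (median 0.02; over all genes 4.95% higher and 3.94% lower, median -0.03). In 8093 very many genes moved, and the members moved both ways. At the midpoint 7 members rose and 14 fell (median -0.13), where 22.6% of all genes were called higher and 27.5% lower (median 0.03). At the end 8 rose and 10 fell (median 0.08), where 19.6% of all genes were called higher and 24.9% lower (median -0.15). The mast cell list lay at 8.92 to 9.74 and 10.95 to 10.98 on these midpoint and end arrays of 8093, against 3.72 to 4.08 at the start. Btg2 and Trp53inp1 rose at both nilotinib midpoints, and Plk3, Sesn2, Ephx1 and Rb1 at both nilotinib ends. With array medians made equal, the Bin-2 midpoint gave 1 member higher and 1 lower, the Bin-2 end 5 and 5, and the 8093 midpoint 4 and 16. That scaling put the median change of all genes at -0.09, -0.17 and -0.19 in these comparisons. With quantile normalization the member counts were 2 and 1, 4 and 1, and 4 and 10. At the 8093 midpoint that normalization gave 3972 genes higher and 4629 lower in place of 4503 and 5485. Without replicate 3 of the nilotinib start the rises at the Bin-2 midpoint numbered 0, and without replicate 1 of the nilotinib end the falls at the 8093 end numbered 6.

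Each end was also set against its own midpoint. The lonafarnib end of Bin-2 had 5 members higher and 12 lower than its midpoint (median -0.22; over all genes 19.8% higher and 9.97% lower, or 2297 and 2161 genes with quantile normalization). Psrc1 (-1.64 ± 0.14), Plk2 (-1.62 ± 0.17), Tnfrsf10b (-1.35 ± 0.16) and Zmat3 (-1.24 ± 0.12) were lowest, and Ddb2 (0.96 ± 0.13) and Btg2 (0.79 ± 0.17) highest. The lonafarnib end of 8093 had 2 higher and 8 lower (median -0.22; over all genes 3.95% higher and 2.31% lower), led by Plk2 (-1.30 ± 0.19), Btg2 (-0.89 ± 0.19) and Ercc5 (-0.84 ± 0.11), but only 3 were lower without replicate 2 of the end and 4 without its replicate 1. Sesn1 and Rrm2b were called higher at the end than at the midpoint in both lonafarnib courses; in 8093 neither was called without replicate 2 of the midpoint or without replicate 1 or 2 of the end. The nilotinib end of Bin-2 had 1 member higher than its midpoint (Ephx1, 0.92 ± 0.19) and 1 lower (Trp53inp1, -0.50 ± 0.11), among 0.998% of all genes called higher and 0.416% lower, and without replicate 2 of the midpoint neither was called. The nilotinib end of 8093 had 15 higher and 6 lower (median 0.41; over all genes 26.7% higher and 27.8% lower, median -0.15; 19 and 4 members with equal array medians). Rb1 (2.05 ± 0.17), Ephx1 (1.85 ± 0.21), Psrc1 (1.26 ± 0.15) and Rrm2b (1.26 ± 0.18) gained most, and Btg2 (-1.34 ± 0.19) and Trp53inp1 (-1.03 ± 0.12) lost most.

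Among the genes that act back on p53, Mdm2 rose at the lonafarnib midpoint of 8093, Ccng1 rose at both lonafarnib midpoints, and Ppm1d fell in 3 of the 4 courses. For Mdm2, the ubiquitin ligase of p53, no change was called in Bin-2: it had 8.29, 8.39 and 8.34 at the nilotinib midpoint and 8.20, 8.49 and 8.34 at the end, against 8.29, 8.34 and 8.32 at the start. For lonafarnib in Bin-2 it had 8.37, 8.28 and 8.52 at the midpoint and 8.37, 8.46 and 8.39 at the end, against 8.14, 8.37 and 8.49. Groups overlapped in each of these Bin-2 comparisons, the changes lay between 0.02 and 0.07, and their 95% intervals reached at most 0.30. At the nilotinib end of 8093 Mdm2 had 8.95 and 8.55, and at the midpoint 8.29, 8.20 and 8.07, against 8.26, 8.39 and 8.40 at the start. Both end arrays stood above the start arrays, with a change of 0.40 ± 0.13 (adjusted p = 0.00891) that was lost without replicate 1 of the end (0.20, adjusted p = 0.313). The midpoint change of -0.16 ± 0.11 was not called, but with equal array medians it was called lower (-0.38, adjusted p = 0.0104). At the lonafarnib midpoint of 8093 it had 9.0, 8.68 and 8.77, and at the end 8.35 and 8.45, against 8.07, 8.17 and 7.96. All midpoint arrays lay above all start arrays, with a change of 0.75 ± 0.11 (adjusted p = 3.66e-05). Both end arrays also lay above all start arrays, but the end difference of 0.34 ± 0.13 was not called (adjusted p = 0.0992). It was called with quantile normalization (0.38, adjusted p = 0.0479) and with dim genes left out (0.34, adjusted p = 0.0479).

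Ccng1, which encodes cyclin G1, a partner of Mdm2, had 10.69, 10.39 and 10.60 in Bin-2 at the lonafarnib midpoint, against 9.58, 9.79 and 9.92 at the start, and 11.13, 11.08 and 11.23 at that of 8093, against 10.12, 10.20 and 10.04. In neither line did the groups overlap, and the changes were 0.80 ± 0.11 (adjusted p = 4.02e-05) in Bin-2 and 1.03 ± 0.11 (adjusted p = 3.01e-07) in 8093. At the lonafarnib end the Bin-2 arrays had 9.75, 9.60 and 9.59 (-0.11 ± 0.11, not called), and those of 8093 10.87 and 10.90 (0.76 ± 0.13, called). It also rose at the nilotinib end of 8093, by 0.83 ± 0.13, with arrays at 11.13 and 10.87 against 10.05, 10.23 and 10.25 at the start.

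Ppm1d encodes the phosphatase Wip1, which dampens the damage response. Its arrays read 7.51, 7.29 and 7.36 at the nilotinib midpoint of 8093 and 7.77 and 7.70 at the end, against 8.67, 8.54 and 8.57 at the start. No treated array reached the lowest start array, and the changes were -1.21 ± 0.10 (adjusted p = 6.3e-11) at the midpoint and -0.86 ± 0.11 at the end. With lonafarnib Ppm1d fell at the midpoint of Bin-2 (-0.35 ± 0.10; -0.24, adjusted p = 0.152, without replicate 2 of the midpoint and -0.32, adjusted p = 0.0611, without replicate 1 of the start) and at its end, where 7.63, 7.55 and 7.66 stood against 8.56, 8.48 and 8.46 at the start (-0.89 ± 0.10, adjusted p = 2.66e-07). The end arrays of Bin-2 all lay below the start arrays, while the call at the lonafarnib midpoint of Bin-2 was also lost with quantile normalization. At the lonafarnib end of 8093, with 8.38 and 8.22 against 8.73, 8.78 and 8.63, the change of -0.41 ± 0.11 was called, but not without replicate 2 of the end (-0.33, adjusted p = 0.275), replicate 1 or 2 of the start, or with equal array medians. Trp73, a p53 family member whose signal was dim, rose at the nilotinib midpoint of 8093 (0.58 ± 0.16), a call lost with quantile normalization and with equal array medians.

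**Figure D3:**
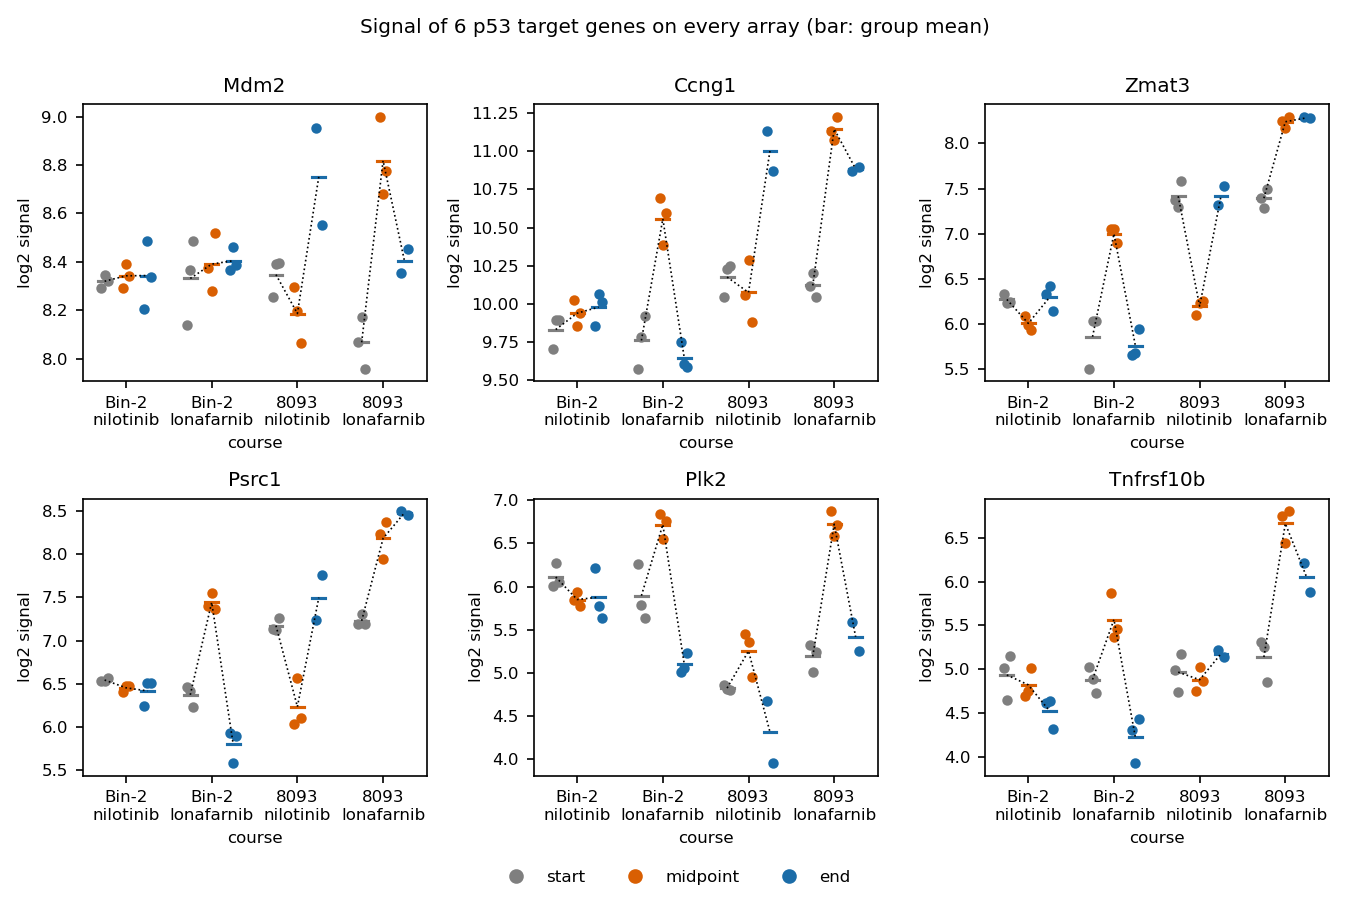
Log2 signal (y axis) of Mdm2, Ccng1, Zmat3, Psrc1, Plk2 and Tnfrsf10b on every array of the 4 courses (x axis), coloured by stage; bars are group means joined by dotted lines, and y axes differ between panels. At the lonafarnib midpoints Ccng1, Zmat3, Psrc1, Plk2 and Tnfrsf10b stand above the start arrays in both lines, and at the lonafarnib end none is called higher than the start in Bin-2, while all but Plk2 still are in 8093.

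Of the 7 measured cell cycle members, 2 rose and 0 fell at the lonafarnib midpoint of Bin-2 and 3 rose and 0 fell at that of 8093, while 4 rose and 3 fell at the nilotinib midpoint of 8093. Over all genes 4.45%, 3.89% and 22.6% were called higher in these comparisons, and 12%, 6.9% and 27.5% lower. Plk2, a polo-like kinase that acts in the G1 phase and centriole duplication, stood at 6.84, 6.55 and 6.76 in Bin-2 at the lonafarnib midpoint, against 6.26, 5.79 and 5.64 at the start. The 8093 arrays had 6.87, 6.58 and 6.71 at that midpoint, against 5.33, 5.01 and 5.24. The midpoint arrays lay above the start arrays in both lines, by 0.82 ± 0.17 (adjusted p = 0.00165) in Bin-2 and 1.53 ± 0.17 (adjusted p = 4.04e-07) in 8093. At the end Plk2 fell below the start in Bin-2, with 5.02, 5.05 and 5.24 and a change of -0.79 ± 0.17 (adjusted p = 0.0023), and in 8093 the difference of 0.23 ± 0.19 was not called. Under nilotinib in 8093 it was called higher at the midpoint (0.43 ± 0.17) and lower at the end (-0.51 ± 0.19), the first lost without any 1 of 5 of the 6 arrays (adjusted p between 0.065 and 0.156) and the second without any 1 of the start arrays or without replicate 2 of the end (-0.14, adjusted p = 0.645).

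Psrc1, a microtubule-binding protein of the spindle, fell at the nilotinib midpoint of 8093, with 6.03, 6.57 and 6.10 against 7.14, 7.12 and 7.26 (-0.94 ± 0.14), and was not called at that of Bin-2 (-0.09 ± 0.14). In lonafarnib it read 7.40, 7.56 and 7.37 at the midpoint of Bin-2 and 5.93, 5.58 and 5.90 at the end, against 6.47, 6.42 and 6.23 at the start. The midpoint arrays were all higher and the end arrays all lower than the start arrays, with changes of 1.07 ± 0.14 (adjusted p = 9.57e-06) and -0.57 ± 0.14, the second not called without replicate 2 of the end (-0.46, adjusted p = 0.0665). In 8093 it had 8.23, 7.95 and 8.37 at the midpoint and 8.50 and 8.46 at the end of lonafarnib, against 7.19, 7.31 and 7.19, and rose by 0.95 ± 0.14 and 1.25 ± 0.15 (adjusted p = 1.32e-06).

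Btg2, an antiproliferative factor that promotes mRNA deadenylation, read 6.29, 6.55 and 6.71 at the nilotinib midpoint of Bin-2 and 6.80, 6.68 and 6.40 at the end, against 5.73, 5.94 and 5.47 at the start. No start array reached these values, and it rose by 0.80 ± 0.17 and 0.91 ± 0.17 (adjusted p = 0.00048). The midpoint call was lost without replicate 3 of the start (0.68, adjusted p = 0.0597). With lonafarnib in Bin-2 the midpoint values of 6.07, 6.39 and 6.10 were not called over 5.84, 5.95 and 5.46 (0.44 ± 0.17), and the end values of 6.81, 6.89 and 7.23 gave a rise of 1.22 ± 0.17 (adjusted p = 9.84e-06). All end arrays lay above the start arrays. In 8093 it rose at both midpoints, by 0.70 ± 0.17 for nilotinib (7.58, 7.51 and 7.32 against 6.98, 6.67 and 6.67) and by 0.68 ± 0.17 for lonafarnib (7.62, 7.78 and 7.66 against 7.03, 7.08 and 6.91). At the 8093 ends it was below the start for nilotinib, at 6.52 and 5.73 (-0.65 ± 0.19, and -0.25, adjusted p = 0.391, without replicate 2 of the end), and not called for lonafarnib (-0.21 ± 0.19).

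Rb1, the retinoblastoma protein that holds back entry into S phase, had 7.80, 7.76 and 7.52 at the nilotinib end of Bin-2, against 7.01, 7.13 and 7.04 at the start, a rise of 0.63 ± 0.15. In 8093 its arrays stood at 8.34, 8.59 and 8.18 at the nilotinib midpoint and 10.66 and 10.19 at the end, against 7.30, 7.09 and 6.98. None of these groups overlapped its start, and the 8093 rises were 1.25 ± 0.15 at the midpoint and 3.30 ± 0.17 (adjusted p = 4.83e-16) at the end, the largest change of any member over a start. The 8093 nilotinib end is the group in which the pre-B list was at 5.78 to 5.88 and the mast cell list at 10.95 to 10.98. In lonafarnib no change was called in Bin-2 (-0.11 ± 0.15 at day 3 and -0.07 ± 0.15 at day 30), and 8093 had 7.88 and 7.83 at the end, against 7.15, 7.04 and 6.88, a rise of 0.83 ± 0.17.

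Plk3, a polo-like kinase of the stress response, rose in nilotinib in both lines. It read 6.18, 6.41 and 5.64 at the nilotinib end of Bin-2, against 4.64, 4.38 and 4.85 at the start, and 6.93 and 6.39 at that of 8093, against 4.96, 4.89 and 5.07. End and start arrays did not overlap, with rises of 1.45 ± 0.25 (adjusted p = 0.000123) in Bin-2 and 1.69 ± 0.28 (adjusted p = 7.17e-06) in 8093. The midpoint arrays of 8093 were uneven, at 5.55, 6.91 and 5.73, the second far above the others, and the rise was 1.09 ± 0.25, or 0.67 (adjusted p = 0.0137) without that array. The Bin-2 midpoint, with 5.52, 5.13 and 5.65, differed by 0.81 ± 0.25 from the start and was not called (adjusted p = 0.0668), although its arrays did not overlap those of the start. In lonafarnib Plk3 was called in neither line.

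Gtse1, a spindle-associated protein that carries p53 out of the nucleus, fell in nilotinib. It had 7.45, 7.73 and 7.69 at the nilotinib midpoint of Bin-2 and 8.18, 7.77 and 7.96 at the end, against 8.43, 8.34 and 8.46 at the start. All treated arrays lay below the start arrays, with changes of -0.79 ± 0.11 (adjusted p = 4.54e-05) at the midpoint and -0.44 ± 0.11 at the end, where the call was lost without replicate 2 of the end (-0.34, adjusted p = 0.108) or replicate 3 of the start. In 8093 it had 6.33 and 6.61 at the nilotinib end and 6.80, 6.71 and 7.05 at the midpoint, against 7.56, 7.43 and 7.52, with changes of -1.03 ± 0.13 (adjusted p = 4.93e-08) and -0.65 ± 0.11. At the lonafarnib end of 8093, 7.35 and 7.44 against 7.84, 7.66 and 7.89 gave -0.40 ± 0.13 (adjusted p = 0.0473), a call lost without replicate 1 or 3 of the start or either end array (adjusted p between 0.124 and 0.237) and with quantile normalization or equal array medians. Ckap2, another spindle protein, fell with nilotinib in 8093, with changes of -1.18 ± 0.15 at the midpoint and -0.65 ± 0.16 at the end (-0.45, adjusted p = 0.0886, without replicate 1 of the end), and was called in no other comparison with a start.

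**Figure D4:**
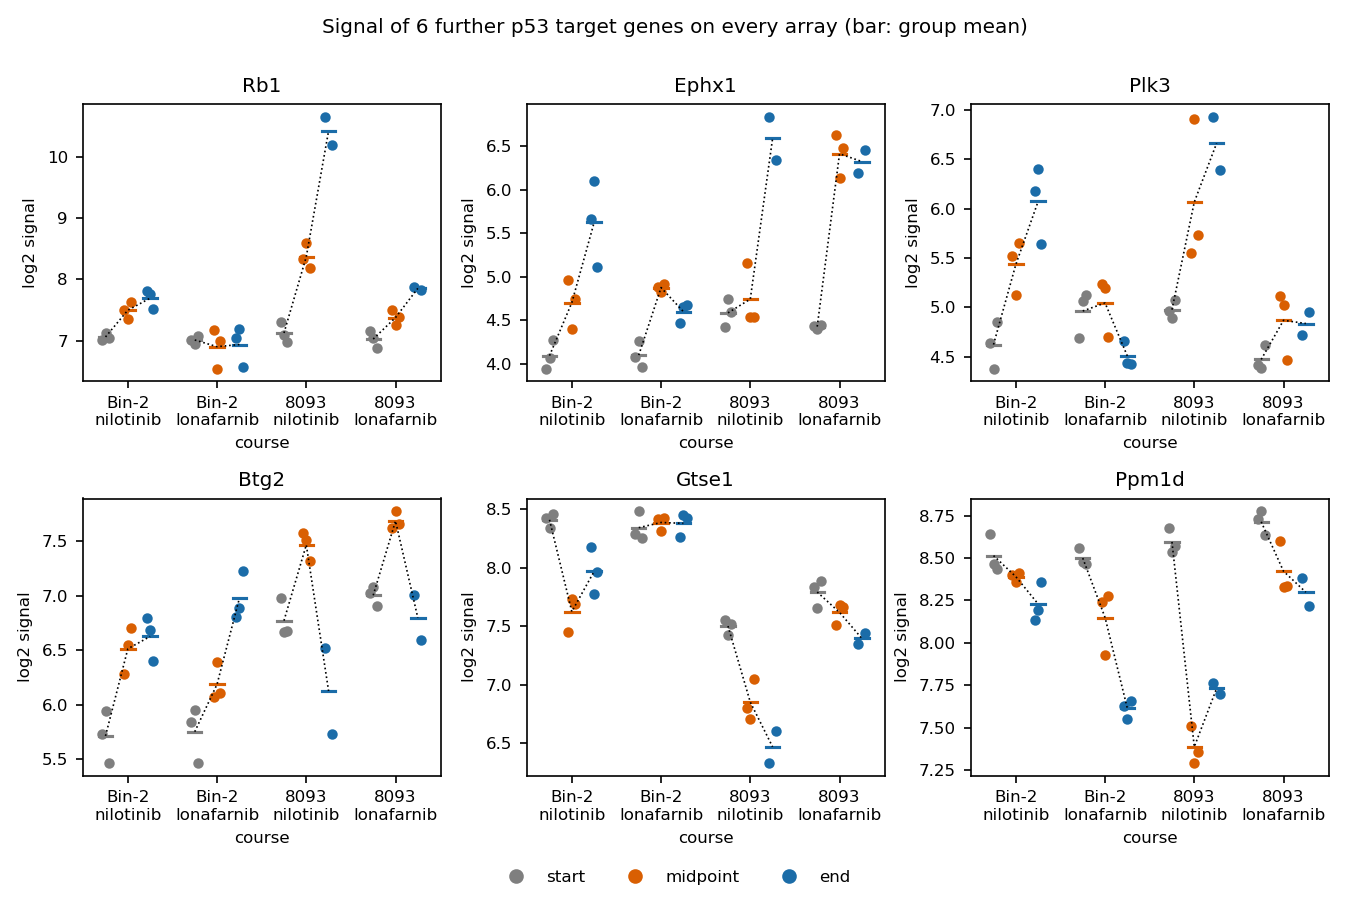
Log2 signal (y axis) of Rb1, Ephx1, Plk3, Btg2, Gtse1 and Ppm1d on every array of the 4 courses (x axis), coloured by stage; bars are group means joined by dotted lines, and y axes differ between panels. Rb1 stands at 10.19 and 10.66 at the nilotinib end of 8093, above every other array, and Plk3 and Ephx1 are above their start arrays at the nilotinib end of both lines.

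Of the 10 death receptor and apoptosis genes, 4 rose and 0 fell at the lonafarnib midpoint of Bin-2 (median 0.28), and 6 rose and 0 fell at that of 8093 (median 0.58), beside 4.45% of all genes higher and 12% lower in Bin-2 and 3.89% and 6.9% in 8093. Tnfrsf10b, the mouse TRAIL receptor, read 5.87, 5.37 and 5.46 in Bin-2 at the lonafarnib midpoint and 4.30, 3.93 and 4.43 at the end, against 5.03, 4.89 and 4.73 at the start. The midpoint arrays were all above and the end arrays all below the start arrays, with changes of 0.68 ± 0.16 (adjusted p = 0.00493) and -0.66 ± 0.16 (adjusted p = 0.00837), the second lost without replicate 2 of the end (-0.52, adjusted p = 0.0889) or replicate 1 of the start. In 8093 it had 6.74, 6.44 and 6.80 at the midpoint and 6.21 and 5.88 at the end, against 5.31, 5.26 and 4.85. These stayed above the start, by 1.52 ± 0.16 and 0.91 ± 0.18, the second lost without replicate 1 of the end (0.75, adjusted p = 0.0566).

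Eda2r, a receptor of the tumour necrosis factor receptor family, had Bin-2 group means near the floor of 3.32, between 3.30 and 3.83. Its lonafarnib midpoint arrays in Bin-2 read 4.04, 3.56 and 3.26, against 4.01, 3.77 and 3.70, and the change of -0.20 ± 0.18 was not called. In 8093 it had 5.72, 5.03 and 5.46 at the lonafarnib midpoint and 5.06 and 5.17 at the end, against 3.97, 3.61 and 3.82 at the start. All treated 8093 arrays lay above the start arrays, by 1.60 ± 0.18 and 1.32 ± 0.20. It also rose at the nilotinib end of 8093 (0.63 ± 0.20, and 0.35, adjusted p = 0.267, without replicate 2 of the end). Fas, the receptor of Fas ligand and also near the floor, had 3.71, 3.99 and 4.59 in Bin-2 at the lonafarnib midpoint, against 3.32, 3.38 and 3.29, a rise of 0.76 ± 0.20 that was lost without replicate 3 of the midpoint (0.52, adjusted p = 0.0848). The 8093 arrays had 4.38, 3.85 and 3.75, against 3.16, 3.72 and 3.80 (0.44 ± 0.20, not called).

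Zmat3, a zinc finger protein that binds RNA, was called in opposite directions under the drugs in 8093. The nilotinib midpoint of 8093 had 6.10, 6.24 and 6.25, against 7.38, 7.29 and 7.58, a change of -1.22 ± 0.12 (adjusted p = 1.2e-09), and its end had 7.32 and 7.53, which was not called (0.01 ± 0.13). No midpoint array of that course reached the lowest start array. In lonafarnib it read 7.05, 7.05 and 6.90 at the midpoint of Bin-2, against 5.51, 6.04 and 6.03 at the start, and 8.25, 8.17 and 8.30 at that of 8093, against 7.39, 7.29 and 7.50. The midpoint arrays were above all start arrays in both lines, by 1.14 ± 0.12 (adjusted p = 5.58e-07) in Bin-2 and 0.85 ± 0.12 (adjusted p = 1.69e-05) in 8093. At the lonafarnib ends Zmat3 was at 5.66, 5.68 and 5.94 in Bin-2 (-0.10 ± 0.12, not called) and at 8.29 and 8.28 in 8093, where it rose (0.89 ± 0.13).

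Trp53inp1, a nuclear protein that promotes p53-dependent death and autophagy, had 10.74, 10.89 and 10.76 at the nilotinib midpoint of Bin-2, against 10.40, 10.36 and 10.45 at the start, a rise of 0.39 ± 0.11 (adjusted p = 0.0332) with no overlap. Leaving out any 1 of the 6 arrays raised that adjusted p to between 0.0688 and 0.143. In 8093 it had 11.09, 10.77 and 10.95 at the nilotinib midpoint, against 10.00, 10.06 and 9.98, and 11.24, 11.05 and 11.26 at the lonafarnib midpoint, against 10.15, 10.27 and 9.87. These groups did not overlap, with rises of 0.93 ± 0.11 (adjusted p = 2e-08) and 1.09 ± 0.11 (adjusted p = 4.09e-08). The lonafarnib midpoint of Bin-2 (0.24 ± 0.11) and the 4 ends gave no call.

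Phlda3, a pleckstrin-homology protein that competes with Akt, rose at the lonafarnib midpoints of Bin-2 (0.61 ± 0.16) and 8093 (0.64 ± 0.16, and 0.47, adjusted p = 0.101, without replicate 2 of the midpoint) and at the nilotinib end of 8093 (0.75 ± 0.18, and 0.40, adjusted p = 0.134, without replicate 2 of the end). Ei24, a protein of the endoplasmic reticulum, fell with nilotinib (-0.62 ± 0.13) and rose with lonafarnib (0.53 ± 0.13) at the midpoints of 8093. Aen, a nuclease of apoptosis, fell at the nilotinib midpoint (-0.73 ± 0.14) and end (-0.56 ± 0.15) of 8093, the second call lost without replicate 1 of the end (-0.26, adjusted p = 0.265). Apaf1, the scaffold of the apoptosome, fell at the nilotinib midpoint and end of 8093 (-0.28 ± 0.10 and -0.55 ± 0.11) and at the lonafarnib end of Bin-2 (-0.41 ± 0.10). The midpoint falls of Apaf1 and Ei24 were lost with quantile normalization, and that of Apaf1 also without replicate 2 of the start (-0.24, adjusted p = 0.0809) or replicate 3 of the midpoint.

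The 5 DNA repair and nucleotide supply genes fell at the nilotinib midpoint of 8093 (5 of 5, median -0.68), the group in which 27.5% of all genes fell. Ercc5, the nuclease XPG that cuts beside DNA lesions, had 7.09, 7.02 and 6.86 there, against 7.65, 7.71 and 7.65 at the start (-0.68 ± 0.10), and 8.42, 8.31 and 8.51 at the lonafarnib midpoint, against 7.77, 7.67 and 7.71 (0.70 ± 0.10). All arrays of the first lay below, and all of the second above, their starts. In Bin-2 Ercc5 rose at the lonafarnib end, at 7.84, 7.75 and 7.84 against 7.17, 6.88 and 6.93 (0.82 ± 0.10, adjusted p = 9.34e-07), and lay at 7.24, 6.86 and 7.14 at the midpoint (0.09 ± 0.10, not called). Polk, a DNA polymerase that copies past lesions, had 7.22, 7.25 and 7.04 at the lonafarnib end of Bin-2, against 6.43, 6.50 and 6.79, a rise of 0.59 ± 0.14 without overlap that was lost without replicate 1 of the start (0.52, adjusted p = 0.0546). In 8093 Polk fell at the nilotinib midpoint (-0.46 ± 0.14), a call lost without replicate 3 of the midpoint (-0.37, adjusted p = 0.0623) and with quantile normalization. It rose at the midpoint and end of lonafarnib in 8093 (0.83 ± 0.14 and 0.67 ± 0.16), the second lost without replicate 1 of the end (0.62, adjusted p = 0.0808).

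Ddb2, which recognises ultraviolet lesions, fell at the lonafarnib midpoint of Bin-2, with 6.38, 5.92 and 6.40 against 7.0, 7.03 and 6.96 and a change of -0.76 ± 0.13 (adjusted p = 0.000318). No midpoint array reached the start arrays, and at the end it was back at 7.28, 7.21 and 7.08 (0.19 ± 0.13, not called). It also fell with nilotinib in 8093, with changes of -0.78 ± 0.13 at the midpoint and -0.48 ± 0.15 at the end (-0.40, adjusted p = 0.107, without replicate 1 of the end). Xpc, a sensor of DNA distortion, fell at the nilotinib midpoint (-0.62 ± 0.11) and end (-0.34 ± 0.12) of 8093, the second lost without replicate 1 of the end (-0.17, adjusted p = 0.412). Rrm2b, the p53-inducible subunit of ribonucleotide reductase, fell at the nilotinib midpoint of 8093 (-0.89 ± 0.16) and was 1.26 ± 0.18 higher at the end than at the midpoint.

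Ephx1, the microsomal epoxide hydrolase and 1 of 4 stress and metabolism genes, rose in 5 of the 8 comparisons with a start. At the nilotinib end it had 5.66, 6.10 and 5.11 in Bin-2, against 3.94, 4.06 and 4.27 at the start, and 6.84 and 6.34 in 8093, against 4.42, 4.74 and 4.59. Each end array exceeded every start array of its course, with rises of 1.53 ± 0.19 (adjusted p = 1.1e-06) and 2.01 ± 0.21 (adjusted p = 3.31e-09); on these end arrays the macrophage list lay at 8.48 to 9.90 in Bin-2 and 8.51 to 10.11 in 8093. At the nilotinib midpoints it was not called in Bin-2 (0.61 ± 0.19) or in 8093 (0.16 ± 0.19). In lonafarnib it had 4.88, 4.83 and 4.92 at the midpoint of Bin-2, against 4.07, 4.26 and 3.96 (0.78 ± 0.19), and was not called at the end (0.50 ± 0.19). For 8093 the lonafarnib arrays read 6.63, 6.14 and 6.48 at the midpoint and 6.20 and 6.45 at the end, against 4.43, 4.40 and 4.45. Both groups stood clear of the start, by 1.99 ± 0.19 (adjusted p = 3.29e-08) and 1.90 ± 0.21.

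Sesn1 and Sesn2 encode sestrins, which restrain mTORC1 when nutrients are short or DNA is damaged, and they did not move together. Sesn2 had 5.90, 5.86 and 5.53 at the nilotinib end of Bin-2, against 5.06, 4.88 and 5.33, and 6.73 and 6.36 at that of 8093, against 5.53, 5.56 and 5.63. The end arrays were above the start arrays in both, by 0.68 ± 0.15 and 0.97 ± 0.17 (adjusted p = 1.98e-05). With quantile normalization the Bin-2 value was 0.50 (adjusted p = 0.0568). At the lonafarnib midpoints Sesn2 read 5.81, 5.89 and 6.10 in Bin-2, against 4.95, 5.09 and 4.87 (0.96 ± 0.15, adjusted p = 0.000124), and 6.09, 6.17 and 6.04 in 8093, against 5.26, 5.25 and 5.70 (0.70 ± 0.15). Neither pair of groups overlapped. Sesn1, in contrast, was lower at the lonafarnib midpoint of Bin-2, with 7.48, 6.84 and 7.40 against 7.50, 7.52 and 7.88. The groups did not overlap, but the call (-0.39 ± 0.13, adjusted p = 0.0322) was lost without replicate 2 of the midpoint (-0.19, adjusted p = 0.334), without replicate 3 of the start, with quantile normalization and in a fit on these 6 arrays alone. At the nilotinib midpoint of 8093 Sesn1 also fell (-0.56 ± 0.13), with arrays at 6.65, 6.97 and 6.92, against 7.28, 7.54 and 7.42, and this call was lost with quantile normalization.

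The changes under nilotinib and lonafarnib were set against each other within each line, each course against its own start. In 8093 at the midpoint, the nilotinib change was lower than the lonafarnib change in 17 of 30 members and higher in 1, with a median difference of -0.63, where 17.6% of all genes differed downwards and 9.19% upwards. The largest differences were those of Zmat3 (-2.07 ± 0.17, adjusted p = 2.39e-09), Psrc1 (-1.89 ± 0.19, adjusted p = 5.16e-08) and Ephx1 (-1.83 ± 0.27), and Rb1 was the 1 member with a higher nilotinib change (0.89 ± 0.22). Zmat3, Psrc1, Ei24, Polk and Ercc5 were called in opposite directions, lower with nilotinib and higher with lonafarnib (35.7% of the nilotinib falls and 33.3% of the lonafarnib rises). The same shares over all genes were not counted. Of these members, the nilotinib falls of Ei24 and Polk were lost with quantile normalization. Plk2, Btg2, Sesn2 and Trp53inp1 were called higher with both drugs, although the nilotinib calls of Plk2 and Sesn2 (0.43 ± 0.17 and 0.38 ± 0.15) were each lost without any 1 of several arrays (0.38, adjusted p = 0.117 and 0.18, adjusted p = 0.366, without replicate 2 of the midpoint). Both of these calls were also lost with quantile normalization and with equal array medians. In Bin-2 at the midpoint 5 members had a lower nilotinib change (Zmat3, Psrc1, Plk2, Gtse1 and Ccng1, -1.41 to -0.69) and 1 a higher one (Ddb2, 0.98 ± 0.19), against 0.441% and 1.04% of all genes. In 8093 the midpoints also differ in day and viable share (day 3 and 5 to 10% for nilotinib, day 4 and 20% for lonafarnib). In Bin-2 both midpoints were taken on day 3 at 5 to 10% viable cells. Each drug had its own dose and its own start arrays, so these are comparisons of whole courses.

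**Figure D5:**
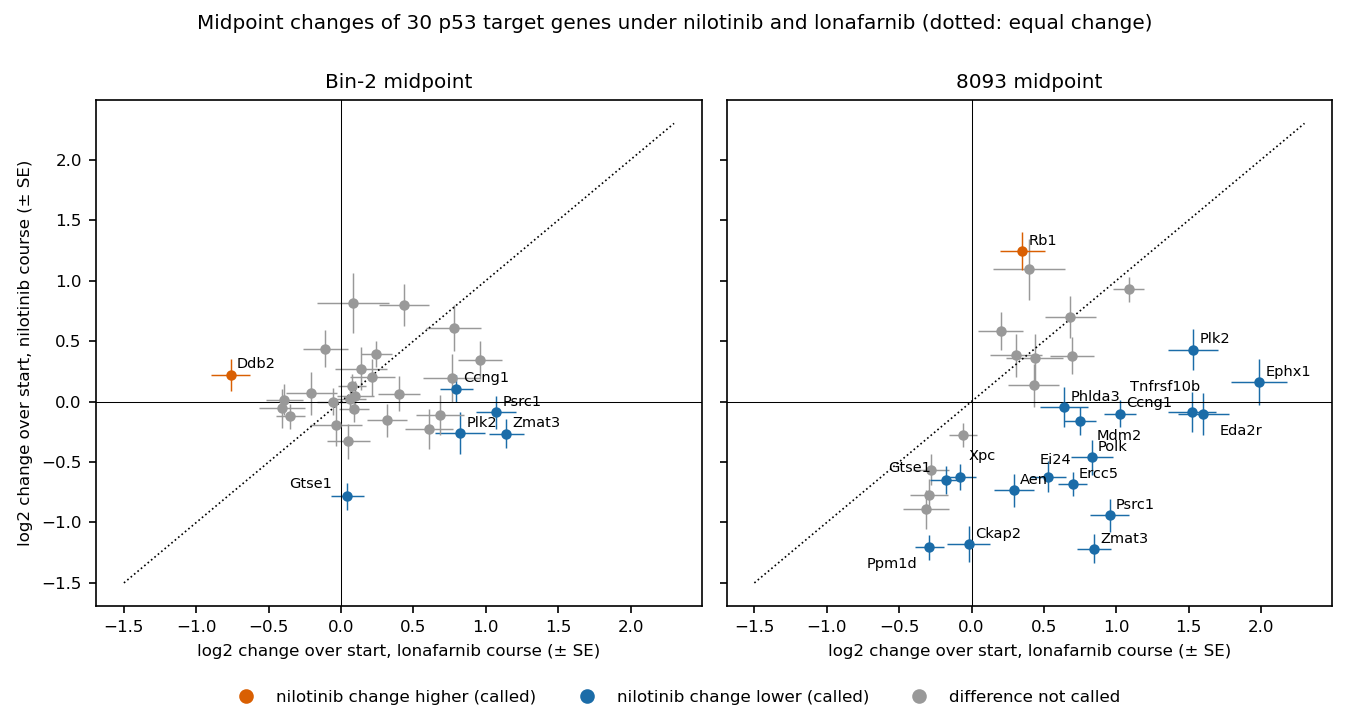
Change of each of the 30 measured members at the midpoint under nilotinib (y axis) against that under lonafarnib (x axis), in log2 units over each course's own start, for Bin-2 (left) and 8093 (right); bars are SE and the dotted line marks equal changes. In 8093 the 17 blue points, with a lower nilotinib change, lie below the line, Zmat3 farthest with a difference of -2.07.

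The drugs were compared at the ends in the same way, and in Bin-2 other members were called than at the midpoint. In 8093 the nilotinib change was higher in 4 members (Rb1, Plk3, Dcxr and Sesn2) and lower in 9, where 15.7% of all genes differed upwards and 17.4% downwards. Of these 9, 4 were cell cycle genes and 4 death receptor and apoptosis genes. At the 8093 midpoint 4 and 6 genes of these roles had a lower nilotinib change. Rb1 had the largest difference (2.47 ± 0.24, adjusted p = 1.71e-09), followed by Plk3 (1.32 ± 0.39). Without replicate 1 of the lonafarnib end, 7 members were called in place of 13. In Bin-2 it was higher in 6 (Plk3, Ephx1, Sesn2, Rb1, Apaf1 and Ppm1d) and lower in 1 (Ercc5, -0.96 ± 0.14), against 4.65% and 4.86% of all genes. Plk3 led with 1.91 ± 0.35 (adjusted p = 0.000452), and Ephx1 followed with 1.03 ± 0.27. Without replicate 2 of the nilotinib end, 4 members were called in place of 7.

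Between the lines, which received different doses, the lonafarnib midpoint changes were lower in Bin-2 wherever a difference was called. At the midpoint Bin-2 had a lower change in 6 members and a higher one in 0, where 3.36% of all genes differed downwards and 0.843% upwards. They were Eda2r (-1.81 ± 0.25, adjusted p = 3.41e-05), Ephx1 (-1.21 ± 0.27), Trp53inp1 (-0.84 ± 0.15), Tnfrsf10b (-0.84 ± 0.23), Mdm2 (-0.69 ± 0.16) and Ercc5 (-0.61 ± 0.14). For Ccng1, Zmat3, Psrc1, Plk2, Sesn2 and Phlda3, which rose in both lines, no difference between the lines was called. At the end the Bin-2 change was lower in 9 members and higher in 2 (Btg2, 1.43 ± 0.26, and Ercc5, 0.96 ± 0.15), against 2.49% and 2.12% of all genes. Psrc1 (-1.82 ± 0.20, adjusted p = 4.43e-07), Eda2r (-1.66 ± 0.27) and Tnfrsf10b (-1.57 ± 0.25) differed most.

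For nilotinib the midpoint change was higher in Bin-2 in 12 members and lower in 3 (Rb1, Plk2 and Trp53inp1), where 18% of all genes differed upwards and 8.01% downwards. Ppm1d (1.08 ± 0.14, adjusted p = 1.79e-06), Ddb2 (1.00 ± 0.19) and Zmat3 (0.95 ± 0.17), which fell in 8093, gave the largest differences. The total of 15 calls became 8 with quantile normalization. At the nilotinib end the Bin-2 change was higher in 4 members and lower in 5, against 15.6% and 15% of all genes, with Rb1 at -2.67 ± 0.23 (adjusted p = 1.43e-10) and Btg2 at 1.56 ± 0.26 (adjusted p = 1.88e-05).

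Before any drug the lines already differed in 13 members: 4 were higher and 9 lower in Bin-2, among 9.47% of all genes called higher and 10.6% lower. Zmat3 was -1.34 ± 0.08 (adjusted p = 1.76e-13) in Bin-2 relative to 8093, with 6 start arrays at 5.51 to 6.33 in Bin-2 and 6 at 7.29 to 7.58 in 8093, which did not overlap. Btg2 (-1.16 ± 0.12), Psrc1 (-0.74 ± 0.10) and Ercc5 (-0.61 ± 0.07) were also lower, and Plk2 (0.99 ± 0.12) and Gtse1 (0.73 ± 0.08) higher, each without overlap. For Mdm2 no difference was called (0.12 ± 0.08, 95% interval -0.04 to 0.28). Between the nilotinib and lonafarnib start arrays of a line limma called 0 genes in either line, members included; at an unadjusted p below 0.05 there was 1 member in Bin-2 and there were 4 in 8093, among 1085 and 2350 genes.

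Genes that control p53, other textbook targets and genes that p53 lowers were read beside the members. Of the 21 measured regulators, the lonafarnib midpoints gave 2 higher and 3 lower in Bin-2 (median 0.00) and 2 higher and 2 lower in 8093 (median -0.07). Over all genes 4.45% were called higher and 12% lower in Bin-2, and 3.89% and 6.9% in 8093. Mdm4, the inhibitory relative of Mdm2, rose in both (0.31 ± 0.09, adjusted p = 0.0176 in Bin-2 and 0.59 ± 0.09, adjusted p = 4.38e-05 in 8093), as did Ep300, an acetyltransferase, in Bin-2 (0.33 ± 0.11). Chek1, a checkpoint kinase that phosphorylates p53, fell in both (-0.46 ± 0.15 and -0.48 ± 0.15), while Rchy1, another ubiquitin ligase of p53, fell in Bin-2 (-0.74 ± 0.15) and Chek2 in 8093 (-0.49 ± 0.13). At the nilotinib midpoint and end of 8093 the regulators gave 6 higher and 9 lower, and 10 higher and 3 lower, where 22.6% and 27.5%, and 19.6% and 24.9%, of all genes were called. Chek1 was -2.12 ± 0.15 and -1.95 ± 0.17, and the p53 kinase Hipk2 0.94 ± 0.14 and 1.87 ± 0.16. Cdkn2a, whose locus encodes the Mdm2 inhibitor p19Arf, rose at the lonafarnib end of Bin-2 (0.71 ± 0.18) and fell at that of 8093 (-0.76 ± 0.20). In Bin-2 under nilotinib Atr was called lower at the midpoint (-0.38 ± 0.10) and the end (-0.33 ± 0.10), and Hipk2 higher at the end (0.63 ± 0.14).

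Of 16 further targets measured, 0 rose and 2 fell at the lonafarnib midpoint of Bin-2 (median -0.02), where 4.45% of all genes were called higher and 12% lower. These 2 were Rps27l (-0.48 ± 0.15) and Triap1 (-0.62 ± 0.15). At the lonafarnib midpoint of 8093, 4 rose and 2 fell (median -0.04), where 3.89% of all genes were called higher and 6.9% lower. The mTORC1 inhibitor Ddit4 (0.95 ± 0.17, adjusted p = 0.000254), the BH3-only protein Noxa encoded by Pmaip1 (0.59 ± 0.12) and Pidd1 (0.47 ± 0.12), a death-domain protein, rose most, and Bid, another BH3-only protein, fell (-0.63 ± 0.12). The nilotinib midpoint and end of 8093 gave 4 higher and 9 lower, and 3 higher and 8 lower, with rises near the shares of all genes (22.6% and 19.6% higher, 27.5% and 24.9% lower). Gadd45a, a damage-response protein, rose (0.65 ± 0.16 and 1.77 ± 0.18), and Trp53i11 (-1.05 ± 0.13 and -3.59 ± 0.15) and Rps27l (-1.76 ± 0.15 and -1.55 ± 0.17) fell. Under nilotinib in Bin-2, 0 of the 16 were called at either time. Over all genes 1.87% were called higher and 1.6% lower at that midpoint, and 4.95% and 3.94% at that end. Bbc3, which encodes Puma, was called at the nilotinib midpoint of 8093 alone (0.47 ± 0.19).

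Of 15 cell cycle genes that p53 lowers, 1 rose (Mki67, 0.35 ± 0.12) and 1 fell (Rrm2, -0.88 ± 0.18) in Bin-2 at the lonafarnib midpoint, with a median of 0.00. Over all genes 4.45% were called higher there and 12% lower. At the lonafarnib midpoint of 8093, 9 fell and 0 rose (median -0.47), where 6.9% of all genes were called lower and 3.89% higher. The largest changes were those of Plk1, the mitotic polo-like kinase (-1.19 ± 0.13, adjusted p = 3.03e-07), Rrm2, the S-phase ribonucleotide reductase subunit (-1.10 ± 0.18), and the spindle kinase Aurka (-0.85 ± 0.12). In Bin-2 under nilotinib, Plk1 fell at the midpoint (-0.46 ± 0.13) and 0 were called at the end, where 1.6% and 3.94% of all genes were called lower. The nilotinib midpoint and end of 8093 gave 13 and 14 falls of 15 (medians -1.24 and -1.21), where 27.5% and 24.9% of all genes fell, with the spindle checkpoint kinase Bub1 at -1.83 ± 0.13 and -1.71 ± 0.14 and the mitotic exit factor Cdc20 at -1.61 ± 0.16 and -1.87 ± 0.18. Of the 11 pre-B cell markers, 5 were called lower and 2 higher on these midpoint arrays, and 10 lower and 1 higher on these end arrays.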

How the data were processed

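RNA from 34 cultures of 2 leukaemia lines was hybridised to Affymetrix Mouse Gene 1.0 ST arrays, 1 array per sample. The authors deposited log2 probeset signals for 35557 probesets, with values between 1.02 and 14.37; Partek is named in the submitters' processing notes, and the normalization method is not given in the sources used here. The lonafarnib doses are those of the labels' treatment protocol, in µM; the design text writes the same figures in mM. The number of arrays per group limits the precision.

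Probesets were named from the platform annotation: 21789 carried 1 gene symbol, 1621 several and 12147 were not listed. Of those with 1 symbol, 21698 matched a RefSeq gene by Entrez identifier and 0 symbols changed. The 999 genes with several probesets were represented by the brightest on average, which left 19938 genes. No 2 arrays held identical values.

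Linear models with 12 group means were fitted to all 34 arrays with limma 3.58.1 in R 4.3.3 (lmFit and eBayes; 22 residual and 6.7 prior degrees of freedom), and p-values were adjusted by Benjamini-Hochberg over all genes in each of 23 comparisons. The labels describe the arrays of a group as separate plates of 1 line, so the p-values measure the spread between cultures of 1 leukaemia. The code was tested on simulated data. Alternatives were quantile normalization, equal array medians, a trended robust prior, dim genes left out, every probeset tested, the mean of a gene's probesets, the replicate number or plate letter as a block, only the arrays compared, and each array left out in turn.

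All measured members may be named. Values on every array were given for Mdm2 in each course and, in each comparison with a start, for up to 4 rising and 2 falling called members of largest change; other members follow with the same detail where a sentence turns on them. Of each further p53 list, up to 3 called genes of largest change each way per course were named. The members, the lists, the cell type markers and these rules were chosen with earlier results of these data known. Figures were drawn with matplotlib 3.10.9.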

Additional observations from a re-analysis of the deposited data

Results flagged for a closer look

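Some members changed by at least 1 log2 unit more under one condition than under another, with an adjusted p below 0.05 in limma for the difference itself. Between the drugs at the midpoint of 8093, the nilotinib change minus the lonafarnib change was -2.07 for Zmat3, -1.89 for Psrc1, -1.83 for Ephx1, -1.70 for Eda2r, -1.61 for Tnfrsf10b, -1.38 for Ercc5 and -1.29 for Polk. It was -1.16 for Ckap2, -1.15 for Ei24, -1.13 for Ccng1, -1.10 for Plk2 and -1.03 for Aen. At the midpoint of Bin-2 the same difference was -1.41 for Zmat3, -1.16 for Psrc1 and -1.08 for Plk2, so these 3 genes were set apart between the drugs in both lines. At the ends, the nilotinib change exceeded the lonafarnib change by 1.91 for Plk3 and 1.03 for Ephx1 in Bin-2, and by 2.47 for Rb1 and 1.32 for Plk3 in 8093.

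Between the lines, the Bin-2 change minus the 8093 change was 1.08 for Ppm1d at the nilotinib midpoint and 1.56 for Btg2 and -2.67 for Rb1 at the nilotinib end. For lonafarnib it was -1.81 for Eda2r and -1.21 for Ephx1 at the midpoint. At the lonafarnib end it was -1.82 for Psrc1, -1.66 for Eda2r, -1.57 for Tnfrsf10b, -1.40 for Ephx1, -1.02 for Plk2 and 1.43 for Btg2. The doses differ between these courses, as do the days of the ends. The lonafarnib midpoint of 8093 also differs from the other midpoints in day and viable share, and the part of other cell types was not tested. Groups of 2 or 3 arrays were not tested for outlying samples.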

How the results depend on the processing

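For the named members in comparisons with a start, no call changed direction under the alternatives run. Differences between drugs or lines were followed only as counts of called members. The median change of the members did change sign for nilotinib in Bin-2. At the end it was 0.02, -0.003 with quantile normalization and -0.12 with equal array medians. At the midpoint it was 0.03, 0.06 and -0.07 in the same order. Of the 49 values of Mdm2 and these largest changes, 45 kept their call with quantile normalization and 45 with equal array medians. With a trended robust prior 49 did, with the mean of a gene's probesets 49, and 43 when only the arrays compared were fitted. Of 280 fits without 1 array 259 did. Other called members are outside these 49. At the nilotinib midpoint of 8093 the calls of Plk2, Sesn1, Sesn2, Ei24, Polk, Apaf1 and Trp73 were lost with quantile normalization. The main limits are the 2 arrays at each 8093 end, the dim signals of Eda2r, Perp, Fas and Trp73, and the scaling: equal array medians put the median change of all genes at -0.17 (end over start, nilotinib in Bin-2) in place of -0.03, and at -0.19 (midpoint over start, nilotinib in 8093) in place of 0.03, and member changes there are read relative to it.

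Counts of called members that moved by over 1.5 times were as follows. With quantile normalization, 4 members were higher at the nilotinib midpoint of 8093, 1 lower at the lonafarnib end of 8093, 1 lower at the lonafarnib midpoint of Bin-2, and 8 differed between the lines at the nilotinib midpoint. With equal array medians, 4 were higher at the nilotinib midpoint of 8093, 1 lower at its lonafarnib midpoint, 0 lower at its lonafarnib end and 5 lower there than at the midpoint, 1 higher at the nilotinib midpoint of Bin-2 and 5 lower at the nilotinib end of Bin-2. A trended robust prior gave 1 lower at the lonafarnib midpoint of 8093. Leaving dim genes out gave 1 lower there, 4 higher at the nilotinib midpoint of Bin-2 and 2 lower at its end. With every probeset tested, 1 was lower at the lonafarnib end of 8093 and 5 were lower there than at the midpoint. With only the arrays compared, 0 were lower at the lonafarnib end of 8093, 1 was higher there than at the midpoint, 0 were lower at the nilotinib end of Bin-2, 0 higher and 0 lower there than at the midpoint, and 1 lower at the lonafarnib midpoint of Bin-2.

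Replicate numbers did not pair the samples: deviations of same-numbered arrays correlated between -0.18 and 0.16, over 0.1 in 2 of 32 pairs of groups (4 of 32 by plate letter). With the replicate block, 1 member was lower at the lonafarnib end of 8093, 5 were lower there than at the midpoint and 1 was higher at the nilotinib midpoint of Bin-2. With the plate letter as the block these were 1, 4 and 1, and 1 was higher at the lonafarnib end of 8093 than at the midpoint.

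Leaving out 1 array at a time gave 6 to 9 members lower at the nilotinib end of 8093, 0 to 1 lower at its lonafarnib midpoint, 0 to 1 lower at its lonafarnib end, and 0 to 2 higher and 3 to 6 lower there than at the midpoint. For Bin-2 it gave 0 to 3 higher at the nilotinib midpoint, 0 to 2 lower at the nilotinib end, 0 to 1 higher and 0 to 1 lower there than at the midpoint, and 3 to 5 lower at the lonafarnib end. Between the drugs, 7 to 14 members differed at the end of 8093 and 4 to 7 at the end of Bin-2. The cause of these shifts was not tested.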
